A study of Mus musculus with 18 samples.

Results

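The genes of plasma complement and coagulation factors were examined as 1 set of 39 genes, taken by their symbols from the 28442 genes of a bulk RNA-seq table of mouse livers and liver tumors. All 39 were found once in the table and all 39 passed the filter on low values. Values were compared between 6 non-tumoral livers and 12 advanced tumors of Alb-R26Met mice, 18 samples from 17 mice, tumors 11 and 12 having come from 1 animal. Every animal was a male F1 of the C57:129Sv background. It carried a Met transgene (a chimeric mouse-human sequence, inserted at the Rosa26 locus behind a stop cassette) together with a Cre recombinase driven by the Albumin promoter, so that the transgene was active in hepatocytes of both groups. The livers therefore carry the same 2 alleles as the tumors and came from mice in which no tumor had formed. Livers were taken at 52 to 71 weeks (median 56.5) and tumors at 49 to 72 weeks (median 65).

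Hepatocytes make most complement and coagulation proteins and release them into the plasma, largely as inactive precursors. Complement is started by antibody (classical pathway, C1r, C1s), by sugars on microbes (lectin pathway, mannose-binding lectins and the Masp proteases) or by spontaneous activation on surfaces (alternative pathway, factor B). The 3 routes meet at C3 and end in a pore built from C5, called Hc in the mouse, to C9. Coagulation is a cascade of proteases that converts fibrinogen to fibrin, and plasmin, made from Plg, dissolves the clot.

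The deposited values are whole numbers that the study calls raw counts. They are read here as rounded TPM, a transcript abundance corrected for gene length and library total. Here they were divided by 1 scaling factor per sample (scaled TPM), so levels can be compared between genes and between samples. A row named Siglece held 17.9% to 29.5% of the deposited total in livers and 21.5% to 82.9% in tumors. The highest share was that of tumor 2, whose scaling factor was 0.191 against 0.765 to 1.41 in the other tumors. The hepatocyte markers Alb and Ttr were abundant in each sample (Alb at 20474 or more in livers and 20261 or more in tumors), and the 8 hepatocyte markers summed to 37103 to 49079 in livers and to 40639 to 70681 in tumors, a sum that Alb dominates. Of these 8 markers 1 was higher in tumors (Apoa1, 0.94) and 2 were lower (Cyp2e1, -2.79, and Ass1, -1.80, log2 fold changes by limma). In bulk tissue, fewer cells of a type and less RNA per cell cannot be told apart.

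In tumors the factors did not move as 1 block. Of the 39 members, 5 were higher in tumors (Kng1, Ahsg, F11, Cfi and C4bp) and 6 were lower (Mbl2, Masp1, C8b, Mbl1, Klkb1 and Masp2) at an adjusted p under 0.05 (limma, adjusted over all 11452 genes tested). This is 12.8% and 15.4% of the members, beside 10.3% of all genes tested that were higher and 8.69% that were lower. The share of higher members is thus near that of all genes. The other 28 members did not pass the test. The median log2 fold change was -0.12 over the members and -0.04 over all genes tested. The 6 that were lower included all 4 members that start the lectin pathway (Mbl1, Mbl2, Masp1 and Masp2). The contact system was split, with Kng1 and F11 higher and Klkb1 lower. None of the 7 vitamin K-dependent factors and none of the 3 fibrinogen chains passed the test.

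**Figure D1:**
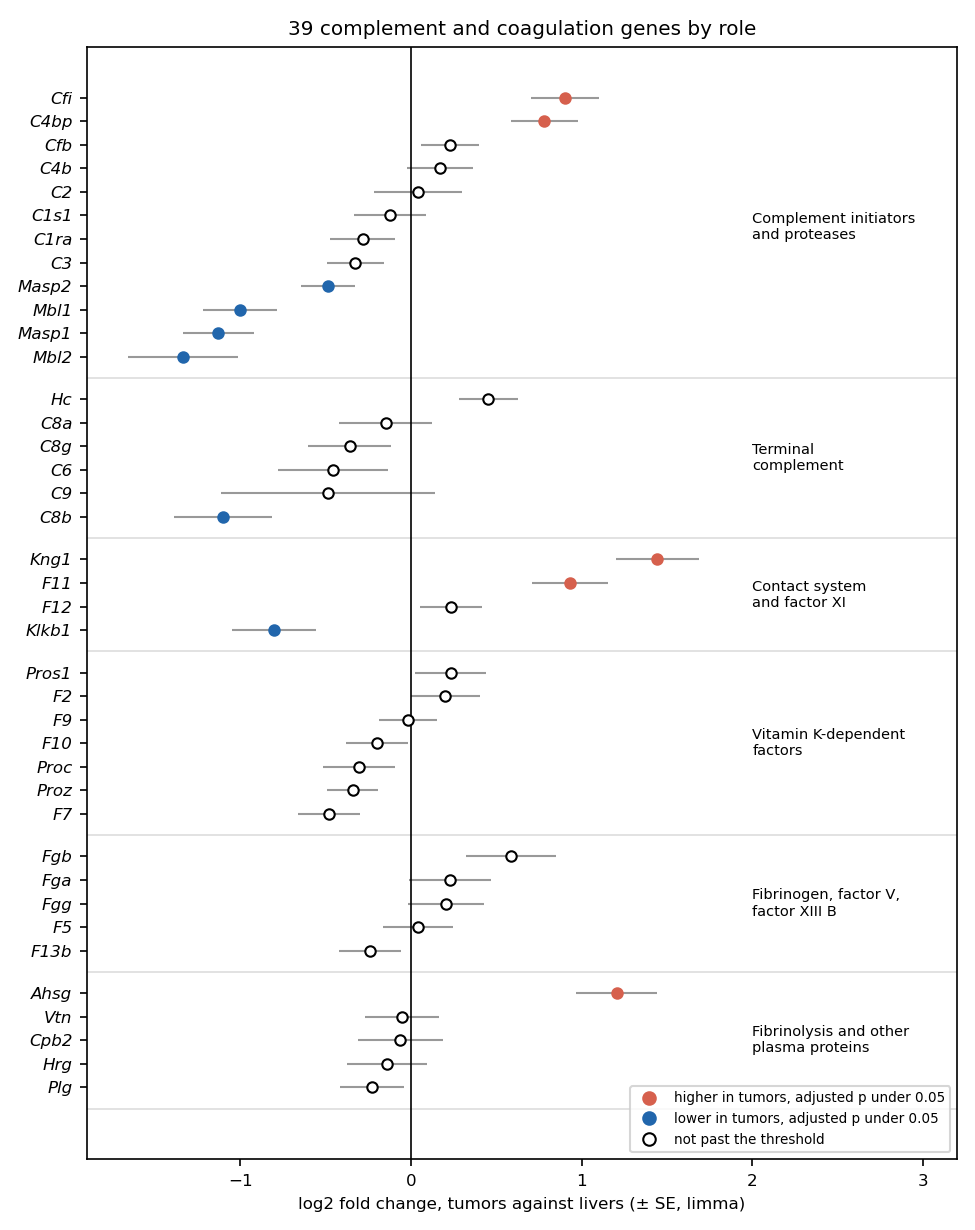
Log2 fold change of each of the 39 genes between 12 tumors and 6 livers (x axis, log2 scaled TPM + 1, bars show the SE from limma), grouped by role. Filled points passed an adjusted p of 0.05: 5 genes lie to the right of 0, and 6 to the left, among them Mbl1, Mbl2, Masp1 and Masp2.

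Upstream sequences are shown for 5 members that passed the test, because they form pairs or contrasts: both mannose-binding lectins, which were lower together, F11 and Klkb1, neighbors that moved in opposite directions, and Ahsg, the most abundant member. Each is the run of 250 bases before the start given by RefSeq in GRCm38.p6, printed 5′ to 3′ on the gene's own strand. In Mbl2 and F11 this start lies inside the full gene span, which begins at 30232906 in Mbl2 and at 45262055 in F11. The runs of these 2 genes thus reach into that span, and the capitals of F11 lie within it. Distances given below are counted from the start used for the run. Mbl1 lies at chr14:41151206-41151455 (plus strand) and Mbl2 at chr19:30232678-30232927 (plus strand). F11 lies at chr8:45262032-45262281 (minus strand), Klkb1 at chr8:45294836-45295085 (minus strand) and Ahsg at chr16:22891765-22892014 (plus strand). Capitals in Mbl1 and Mbl2 mark the longest stretch the 2 have in common. In the other 3, capitals mark TTGCNNAA, a form of the site bound by C/EBP factors, searched on both strands.
Mbl1: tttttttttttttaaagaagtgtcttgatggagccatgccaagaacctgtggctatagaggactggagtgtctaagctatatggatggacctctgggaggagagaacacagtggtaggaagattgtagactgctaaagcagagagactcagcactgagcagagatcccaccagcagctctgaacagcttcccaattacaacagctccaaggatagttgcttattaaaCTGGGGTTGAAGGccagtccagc
Mbl2: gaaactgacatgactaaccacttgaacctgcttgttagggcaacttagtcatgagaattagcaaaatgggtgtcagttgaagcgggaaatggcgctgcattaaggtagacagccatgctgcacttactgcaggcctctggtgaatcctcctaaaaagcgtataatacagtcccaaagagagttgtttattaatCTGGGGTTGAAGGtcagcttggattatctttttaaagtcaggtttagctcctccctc
F11: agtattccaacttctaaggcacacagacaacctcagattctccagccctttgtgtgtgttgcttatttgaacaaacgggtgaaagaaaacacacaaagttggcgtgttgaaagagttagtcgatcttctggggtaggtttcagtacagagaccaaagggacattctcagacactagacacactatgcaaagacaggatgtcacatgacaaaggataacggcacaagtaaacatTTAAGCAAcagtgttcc
Klkb1: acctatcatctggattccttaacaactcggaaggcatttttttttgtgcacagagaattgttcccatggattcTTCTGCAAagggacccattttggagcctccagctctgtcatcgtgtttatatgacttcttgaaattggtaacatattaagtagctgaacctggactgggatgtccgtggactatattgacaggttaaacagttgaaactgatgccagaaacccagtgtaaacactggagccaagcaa
Ahsg: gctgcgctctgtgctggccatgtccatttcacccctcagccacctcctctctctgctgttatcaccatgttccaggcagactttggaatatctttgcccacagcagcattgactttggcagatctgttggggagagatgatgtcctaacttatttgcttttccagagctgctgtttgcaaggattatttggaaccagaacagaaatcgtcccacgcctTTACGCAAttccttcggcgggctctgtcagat

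The stretch common to Mbl1 and Mbl2 is 13 bases long and begins 23 bases before the start of Mbl1 and 57 before that of Mbl2. It was found in 3 of 32851 RefSeq promoters (0.00913%), those of Mbl1, Mbl2 and Slc25a53, on either strand. Windows of 250 bases before to 50 after the start were at hand for 31 of the 39 members and for 27025 genes in all. TTGCNNAA was present in 12 of the 31 members (38.7%: Ahsg, C1ra, C1s1, C3, C9, Cpb2, F11, F9, Fga, Fgb, Hrg and Klkb1) and in 12.2% of all genes. It begins 17 bases before the start of F11, 32 before that of Ahsg and 177 before that of Klkb1, so that genes with a match were found among those that were higher, lower and not called. The letters CTGGGAA of the interleukin 6 response element were present in 7 members (22.6%: C1ra, C6, F9, Fgb, Fgg, Masp2 and Vtn) and in 12.7% of all genes. The HNF1 letters TAATNATTA were present in F13b and Hc (6.45% of members, 0.714% of all genes) and the STAT letters TTCCNGGAA in Fga and Pros1 (6.45% and 1.35%). The HNF4 letters CAAAGTCCA were found in 0 of 31 members and in 0.555% of all genes. In no member did matches to different motifs overlap, and a match is a description of letters only.

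Transcripts of the lectins and Masp proteases that start the lectin pathway were lower in tumors. Mbl2, a mannose-binding lectin that recognizes sugars on microbes, lay at 58.7 to 165 scaled TPM in livers (median 146) and at 17.6 to 101 in tumors (median 56.1). Its log2 fold change was -1.34 ± 0.32 (SE, n = 6 livers and 12 tumors), with an adjusted p of 0.00574 by limma. Of 12 tumors, 7 lay below every liver, and liver 1 was the lowest liver by far, the next being at 133. Mbl1, the second mannose-binding lectin of the mouse, lay at 33.7 to 76.6 in livers (median 64.4) and at 14.9 to 49.9 in tumors (median 30.01). It fell by 1.0 on the log2 scale (SE 0.22, adjusted p = 0.00245, limma), and 9 tumors lay below every liver.

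Masp1, a protease that activates together with the lectins, went from a range of 37.2 to 66.6 in livers (median 55.3) to 12.4 to 40.0 in tumors (median 23.6). Its log2 fold change of -1.13 ± 0.21 (adjusted p = 0.000587, limma) was the most significant among the lower members, and 11 of 12 tumors lay below every liver, the exception being tumor 8. Masp2, the protease that cleaves C4 and C2, moved least, from 105 to 143 in livers (median 124) to 54.8 to 126 in tumors (median 89.3). The log2 fold change of Masp2 was -0.49 ± 0.16 (adjusted p = 0.0321, limma), 10 tumors lay below every liver, and it kept its call in 13 of 18 fits that left out 1 sample (highest adjusted p 0.0867).

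The same direction was seen in lectin-pathway genes outside the 39. The collectins Colec10 (log2 fold change -1.49 ± 0.38, adjusted p = 0.00856) and Colec11 (-0.77 ± 0.23, adjusted p = 0.0208) and the ficolin Fcna (-1.52 ± 0.30, adjusted p = 0.00118) were lower in tumors by limma. Fcna lay at 10.4 to 24.5 in livers and at 0.884 to 8.98 in tumors, so the groups did not overlap, as for 0.891% of all genes tested in that direction. Fcnb was too low to be tested. Thus 7 of the 7 tested genes that start the lectin pathway were lower, beside 8.69% of all genes tested. This grouping by textbook role was made after the values were seen. It leaves out C4b (log2 fold change 0.17) and C2 (0.04), which the pathway cleaves next and which did not pass the test. Fcna is known from macrophages of the liver, and the 5 Kupffer cell markers summed to 33.0 to 94.7 in livers and to 2.61 to 63.7 in tumors, with 1 of 3 tested (Clec4f) lower. Of the 7 markers of stellate cells and fibroblasts, a source of collectins, 3 were higher and 2 lower. The higher ones were the collagens Col1a1 (2.17), Col1a2 (1.42) and Col3a1 (1.58), and the lower ones were Lrat (-1.09) and Des (-0.59). Their part in the result was not tested.

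**Figure D2:**
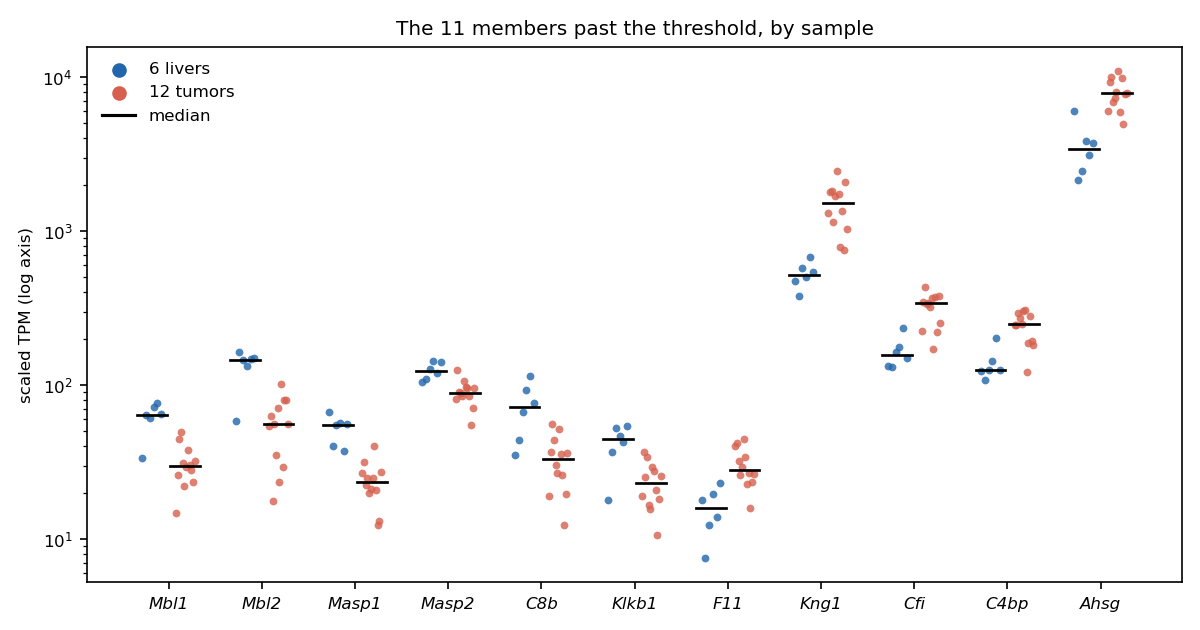
Scaled TPM (log axis) of the 11 genes that passed the test, in 6 livers (blue) and 12 tumors (red), 1 point per sample, with the median as a black line. Kng1 is the gene whose tumors all lie above its livers, from 756 against a highest liver of 683, and tumors reach below the livers in Mbl1, Mbl2, Masp1, Masp2, C8b and Klkb1.

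The classical and alternative pathways and their central components changed little. C3, the protein on which all routes converge and the most abundant member of its role group, lay at 1282 to 2038 scaled TPM in livers (median 1570) and at 907 to 1588 in tumors (median 1316). Its log2 fold change was -0.33 ± 0.17 (adjusted p = 0.192, limma), although 6 of 12 tumors lay below every liver. C1ra and C1s1, the proteases of the first component, had log2 fold changes of -0.28 (adjusted p = 0.331) and -0.12 (adjusted p = 0.756). C4b, C2 and Cfb, which form the C3-cleaving enzymes, had 0.17 (adjusted p = 0.605), 0.04 (adjusted p = 0.937) and 0.23 (adjusted p = 0.398). C4b has a near-identical copy, C4a, so the division of reads between them is uncertain.

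The 2 members of this group that rose encode inhibitors of complement. Factor I (Cfi), a protease that inactivates C3b and C4b, lay at 131 to 236 in livers (median 157) and at 171 to 432 in tumors (median 339). It was 1.87-fold higher (log2 fold change 0.90 ± 0.20, adjusted p = 0.00283, limma), with 9 of 12 tumors above every liver. C4bp, a cofactor of factor I that binds C4b, lay at 108 to 203 in livers (median 125) and at 121 to 307 in tumors (median 249). The log2 difference was 0.78 ± 0.20 (adjusted p = 0.00752, limma), and 8 tumors lay above every liver. In both genes tumor 8 was the lowest tumor and liver 5 the highest liver.

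Among the 6 terminal components, C8b alone passed the test. It encodes the beta chain of C8, a protein of 3 chains, and lay at 35.1 to 115 in livers (median 71.9) and at 12.4 to 55.6 in tumors (median 33.0). Its log2 fold change was -1.10 ± 0.29 (adjusted p = 0.00992, limma), and 6 tumors lay below every liver. The other 2 chains did not pass. C8a had a log2 fold change of -0.15 (adjusted p = 0.772) and C8g one of -0.36 (adjusted p = 0.344). Hc, the mouse C5, lay at 149 to 223 in livers and at 163 to 380 in tumors, 9 of them above every liver, with a log2 fold change of 0.45 ± 0.18 (adjusted p = 0.0777). C6 (-0.46, adjusted p = 0.367) and C9 (-0.49, adjusted p = 0.661) varied widely within groups. C9 went from 18.6 in liver 1 to 214 in liver 5, and from 1.77 in tumor 10 to 130 in the highest tumor.

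The ratio between chains of 1 protein needs no scaling factor, and was compared separately as the log2 ratio of deposited values + 1. The added 1 draws ratios of low values toward 0, as in tumor 2, where the deposited value of C8b was 7. C8a exceeded C8b by 0.76 ± 0.31 (SD, n = 6) in livers and by 1.71 ± 0.52 (SD, n = 12) in tumors, a difference of 0.95 (exact permutation test over 18564 splits, two-sided, p = 0.000754, adjusted p = 0.00452 over 6 ratios). In 10 of 12 tumors this ratio was above that of every liver. C8g against C8b went from 1.44 ± 0.38 to 2.18 ± 0.45 (difference 0.74, exact permutation p = 0.00393, adjusted p = 0.0118), with 7 tumors above every liver. C8a and C8b are neighbors within 110 kb on chromosome 4 of GRCm38, and of the 3 chains C8b alone was called in the test above. Within the samples whose names carry the tag E19 (7 tumors, 2 livers) the difference for C8a/C8b was 1.23, and within those with E20 (5 tumors, 4 livers) 0.80. The labels do not say what this tag marks.

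**Figure D3:**
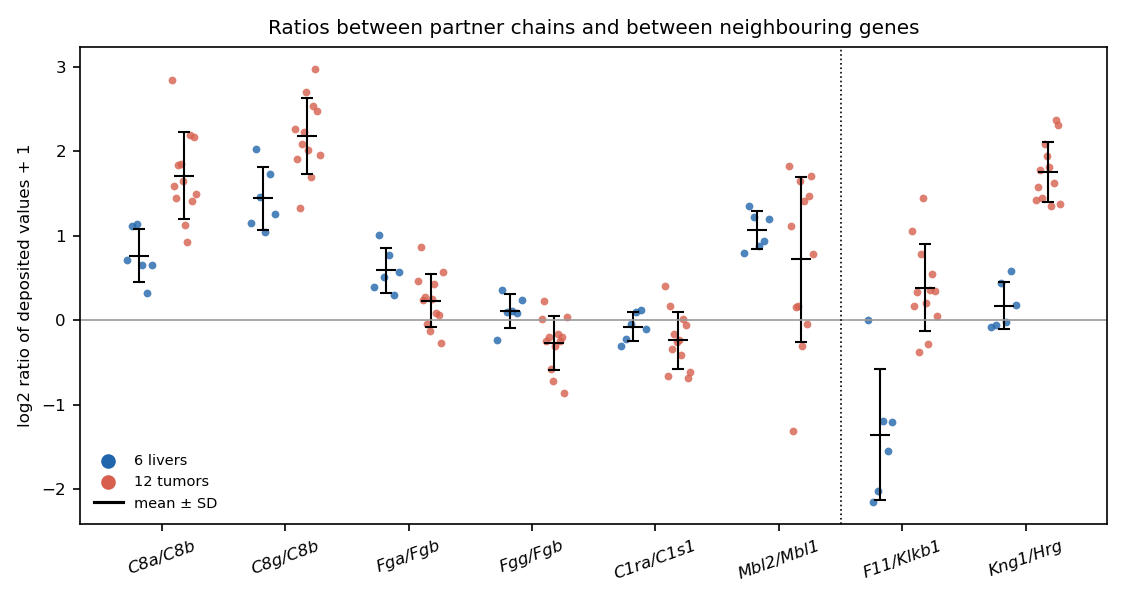
Log2 ratio of deposited values + 1 for 8 gene pairs (y axis) in 6 livers (blue) and 12 tumors (red), 1 point per sample, with the mean ± SD in black. The 6 pairs left of the dotted line were tested, and the 2 to its right, chosen after their values were seen, are shown as a description: F11/Klkb1 lies below or at 0 in each liver, and the 12 tumors are above all livers for Kng1/Hrg.

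The contact system, which starts coagulation on charged surfaces and releases bradykinin, held the largest rise of the 39 genes. Kng1, the kininogen from which bradykinin is cut, lay at 378 to 683 scaled TPM in livers (median 520) and at 756 to 2440 in tumors (median 1513). It was 2.72-fold higher (log2 fold change 1.44 ± 0.24, adjusted p = 0.000265, limma). Every tumor lay above every liver, as for 2.32% of all genes tested in that direction, and Kng1 was the single member whose groups did not overlap. By median level it ranked 10 among the members in livers and 3 in tumors. Kng2, a near-identical copy, was also higher (0.97 ± 0.20, adjusted p = 0.00151), so the division of reads between the 2 copies is uncertain.

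F11, the precursor of factor XI, lay at 7.53 to 23.2 in livers (median 15.9) and at 15.9 to 44.4 in tumors (median 28.2). F11 thus had a log2 fold change of 0.93 ± 0.22 (adjusted p = 0.00509, limma), with 10 of 12 tumors above every liver. These are low values, and of the 11 called members F11 had the lowest median in livers, so rounding to whole TPM weighs more here than in the other called members' livers. Klkb1, plasma prekallikrein, which cleaves kininogen, went the other way. It lay at 17.9 to 54.3 in livers (median 44.5) and at 10.6 to 36.7 in tumors (median 23.1), with a log2 fold change of -0.81 ± 0.25 (adjusted p = 0.0261, limma). Only 3 tumors lay below every liver, since liver 1 was itself at 17.9 and the next liver at 36.7, and 4 of 18 fits without 1 sample lost the call (highest adjusted p 0.0772). F12 (factor XII) had a log2 fold change of 0.24 (adjusted p = 0.423).

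F11 (chr8:45240659-45262055) and Klkb1 (chr8:45266688-45294835) are adjacent related genes that together span 54.2 kb in GRCm38. The log2 ratio of F11 to Klkb1 lay between -2.15 and 0 in livers (median -1.38) and between -0.37 and 1.44 in tumors (median 0.34). It was above that of every liver in 10 tumors. Kng1 (chr16:23058220-23082078) also has neighbors in the set. It stands with Kng2, Hrg, Fetub and Ahsg within 190 kb on chromosome 16. Of these 5 genes Kng1, Kng2 and Ahsg rose, whereas Hrg (-0.14, adjusted p = 0.749) and Fetub (-0.07, adjusted p = 0.856), which lie between them, did not pass the test. The log2 ratio of Kng1 to Hrg was -0.08 to 0.58 in livers and 1.35 to 2.37 in tumors. Both pairs were chosen after their values were seen and were not tested.

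Ahsg (fetuin-A, a plasma inhibitor of mineral deposition) was the most abundant member in both groups. It lay at 2131 to 6021 in livers (median 3415) and at 4949 to 10876 in tumors (median 7812), a rise of 1.205 ± 0.24 on the log2 scale (adjusted p = 0.00114, limma). Liver 1 was the highest liver, the next being at 3826, and 10 tumors lay above every liver. The other 4 members of its role group did not pass. They were Plg, the precursor of plasmin (-0.23, adjusted p = 0.446), Cpb2, an inhibitor of fibrinolysis (-0.06, adjusted p = 0.901), Vtn, vitronectin (-0.05, adjusted p = 0.905), and Hrg, the histidine-rich glycoprotein. Plg was below every liver in 8 tumors and above every liver in 1, tumor 2.

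**Figure D4:**
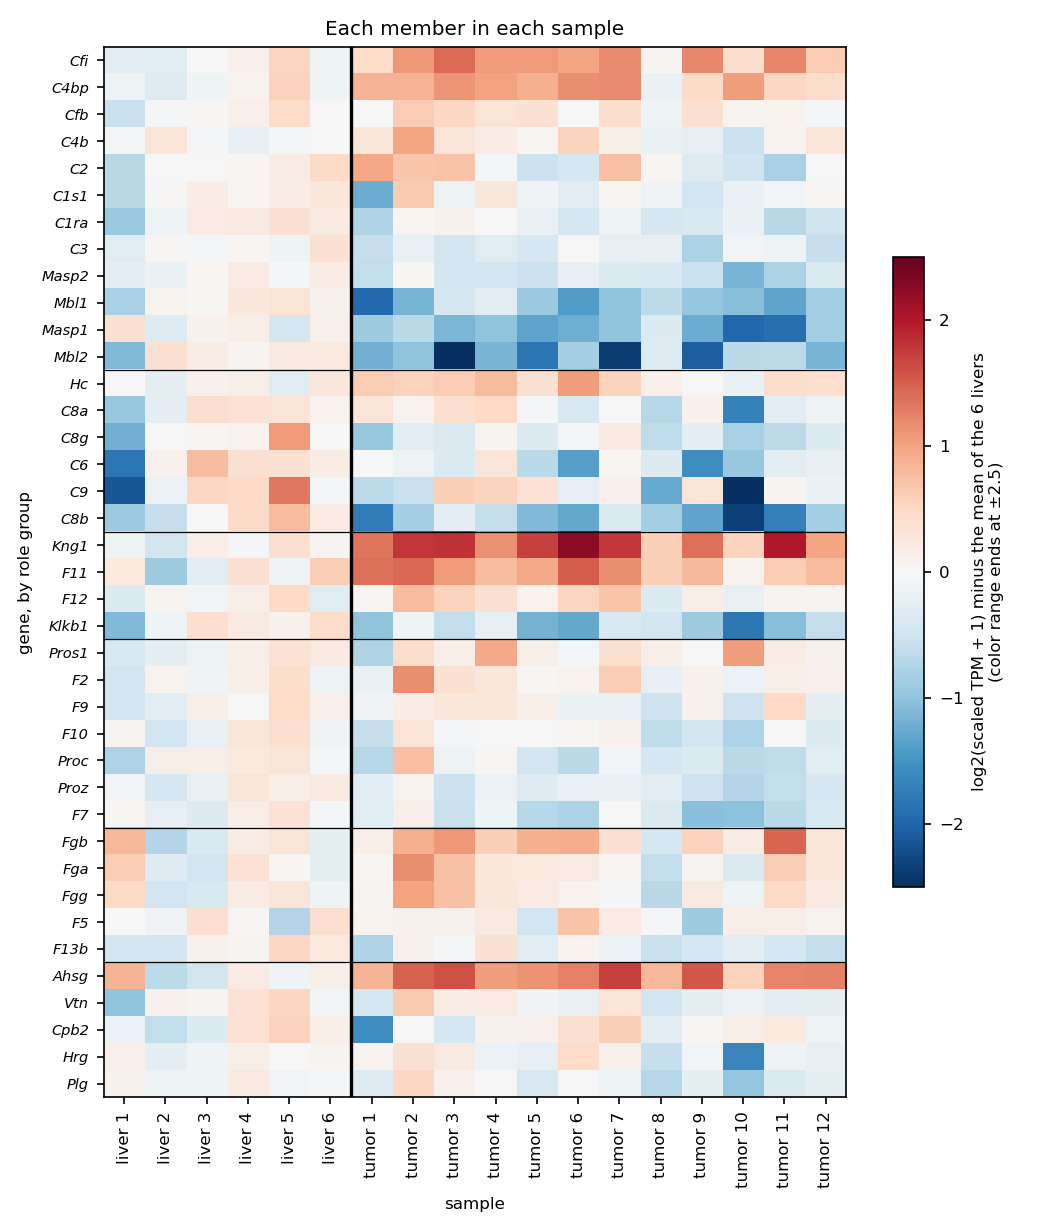
Deviation of log2(scaled TPM + 1) from the mean of the 6 livers (color) for 39 genes (rows, by role group) in 18 samples (columns). Kng1 and Ahsg are red and Mbl1 and Masp1 blue in nearly all tumors, while liver 1 is pale to dark blue in C6, C9, C8g, Mbl2 and Klkb1.

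Coagulation downstream of the contact system was largely unmoved at the threshold used. Of the vitamin K-dependent factors, F2 (prothrombin) was the most abundant, at 463 to 886 in livers (median 651) and at 563 to 1458 in tumors (median 702), with a log2 fold change of 0.20 ± 0.20 (adjusted p = 0.551, limma). F7 (factor VII) came closest to the threshold, at -0.48 ± 0.18 (adjusted p = 0.0703), with 8 tumors below every liver. Proz (-0.34, adjusted p = 0.124), Proc (-0.30, adjusted p = 0.354), F10 (-0.20, adjusted p = 0.504), F9 (-0.02, adjusted p = 0.959) and Pros1 (0.23, adjusted p = 0.497) followed. Pros1 (protein S) had the lowest median level of all members in both groups, 11.6 in livers and 12.8 in tumors. F5 (0.04, adjusted p = 0.925) and F13b (-0.24, adjusted p = 0.407) did not pass either.

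By median level the fibrinogen chains came after Ahsg and C3 in livers, and were among the 6 most abundant members in tumors. Fga lay at 1085 to 2305 in livers (median 1383) and at 986 to 3357 in tumors (median 1740), Fgb at 594 to 1761 and 735 to 2732, and Fgg at 764 to 1501 and 658 to 2161. Their log2 fold changes were 0.23 ± 0.24 for Fga (adjusted p = 0.577), 0.58 ± 0.26 for Fgb (adjusted p = 0.135) and 0.20 ± 0.22 for Fgg (adjusted p = 0.593). The chains are assembled in equal numbers, and their genes lie within 42.1 kb on chromosome 3. Fga against Fgb fell from 0.59 ± 0.26 (SD, n = 6) to 0.23 ± 0.32 (SD, n = 12) on the log2 scale (difference -0.36, exact permutation p = 0.0317, adjusted p = 0.0475). Fgg against Fgb fell from 0.11 ± 0.20 to -0.27 ± 0.32 (difference -0.38, exact permutation p = 0.0163, adjusted p = 0.0326). Neither call held throughout: of 18 tests that left out 1 sample, Fga/Fgb kept it in 6 and Fgg/Fgb in 13, with adjusted p-values of up to 0.145 and 0.0844, both without liver 2. C1ra/C1s1 (difference -0.16, adjusted p = 0.357) and Mbl2/Mbl1 (-0.34, adjusted p = 0.423) did not pass. For Mbl2/Mbl1 the tumors spread from -1.31 to 1.83 against 0.79 to 1.35 in the livers.

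The tumors differed in how many factors left the range of the 6 livers. Between 2 (tumor 2) and 14 (tumor 10) of the 39 members lay below every liver (median 8), and between 1 (tumor 8) and 20 (tumor 2) above (median 7). Some members fall outside the range of so few livers by chance. Each liver, set against the other livers, had 0 to 21 members below (median 3) and 2 to 19 above (median 4.5). The same counts over all genes are not given, so these are not read as a trait of the members. Tumor 10 was the lowest tumor for 16 members, among them C9, Hrg, C8b, Masp1 and Kng1. Tumor 2, with the low scaling factor, was the highest for 15. In 3 members, C6, C8g and C1ra, no tumor left the liver range. The low end of that range was liver 1 in all 3. It lay at 10.7 in C6, 78.8 in C8g and 47.3 in C1ra, and the next liver at 43.3, 184 and 83.8. All 3 were called lower without liver 1 and tumor 2, as given below. Among livers, liver 1 was the lowest for 21 members and the highest for 5. Its endothelial markers were also the lowest of the livers (sum 21.5, against up to 66.0), as were those of red blood cells (3.58, against up to 62.8). The hepatocyte markers of liver 1 had the lowest sum as well (37103, against up to 49079). Among them Pck1 was lowest in liver 1 (28.6, the next liver at 435) and Cps1 highest (1753). Its macrophage and monocyte markers summed to 88.1, above the liver median of 54.1. The part of these differences in the results was not tested.

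**Figure D5:**
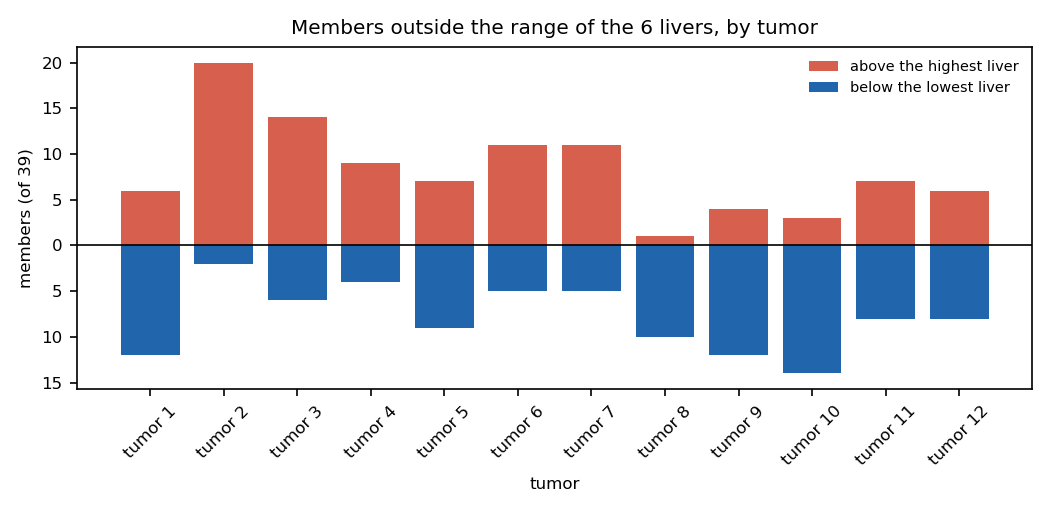
Number of the 39 genes above the highest of the 6 livers (red, upward) and below the lowest (blue, downward) in each of 12 tumors. Tumor 2 has 20 genes above and 2 below, and tumor 10 has 3 above and 14 below. The same counts over all genes are not given.

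The log2 SD of the members had a median of 0.386 in livers and 0.401 in tumors. In 25 of 39 members the tumors varied more than the livers, and without liver 1 in 32. For the latter count a liver was left out but no tumor, so only the spread of the livers was changed. Neither count was set beside its share over all genes, so neither is read as a trait of the members. Together the 39 genes summed to 12602 to 18023 scaled TPM in livers (mean 15589 ± 2187, SD, n = 6) and to 15028 to 28935 in tumors (mean 21592 ± 4289, SD, n = 12). Without Ahsg the sums were 12048 ± 1296 and 13697 ± 2911, so that 1 gene made up most of the gap. These sums are given without a test.

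Leaving out liver 1 and tumor 2 changed how many members passed, an alternative chosen after the data were seen. Without both, 13 members were lower and 6 higher, beside 15% of the 12004 genes tested that were lower and 15.6% that were higher. All 11 members called above kept their call. The 7 more that were lower were C3 (-0.44, adjusted p = 0.0389), C6 (-0.89), C8g (-0.64), C1ra (-0.54), F7 (-0.57), Proc (-0.59) and Proz (-0.43), and Fgb was higher (0.69, adjusted p = 0.049), by limma. Without tumor 2 alone, 8 were lower (11.7% of genes), and without liver 1 alone 7 (9.99%). Without any scaling between samples, 4 were lower (Mbl1, Mbl2, Masp1 and C8b) and 1 higher (Kng1), beside 5.04% of the 13309 genes then tested that were lower and 5.03% that were higher. The 11 kept their sign, and of those that lost the call Masp2 (-0.71) and Klkb1 (-1.02) had larger log2 fold changes than with scaling. That alternative moved the median log2 fold change of all genes tested from -0.04 to -0.18. Within tags, the 11 had the same direction in E19 and in E20. In E19 alone Kng1, Ahsg, Mbl1, Mbl2, Masp1 and C8b remained past the threshold, and in E20 alone Kng1. No gene differed between tags in its tumor-liver difference at an adjusted p under 0.05 (limma interaction, 0 genes, 331 at an unadjusted p under 0.05, among them 0 members).

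Other complement genes moved in part like the members. Of 39 such genes, 28 were expressed highly enough to be tested, 2 were higher and 5 lower, with a median log2 fold change of -0.32. Apart from the lectin-pathway genes, the lower ones included Susd4, an inhibitor of complement (-2.93 ± 0.42, adjusted p = 4.3e-05). The higher ones were Clu, which binds terminal complement (1.25 ± 0.27, adjusted p = 0.00218), and Cd93 (1.50), a surface protein of endothelial cells, whose 6 markers included 2 that were higher.

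Other coagulation and fibrinolysis genes, by contrast, were mostly higher where they passed. Of 39, 29 were tested, 10 were higher (34.5%, beside 10.3% of all genes) and 1 lower (3.45%, beside 8.69%), with a median log2 fold change of 0.41. The largest rises included those of Anxa2, a cell-surface receptor for plasminogen (3.23 ± 0.38, adjusted p = 3.56e-06), and Fgl2, a prothrombinase (2.78 ± 0.25, adjusted p = 1.04e-07), by limma. In Anxa2 and Fgl2 every tumor lay above every liver. The one that fell was Serpine2 (-1.33 ± 0.29, adjusted p = 0.00254). Other cell types also make several of these, and their markers moved as given for the lectin pathway and for Cd93.

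Other liver products did not share 1 direction. Of 27 further secreted liver proteins, 7 were higher, led by Apoa4 (3.37), Serpina6 (1.57) and Afm (1.42), and 3 were lower (Igfals -2.14, Apoa2 -0.78 and Rbp4 -0.63), with a median of -0.07. Of 16 acute phase proteins, 2 were higher (Lcn2 3.45 and Apcs 1.12) and 4 lower, led by Hamp (-4.59), Orm3 (-2.62) and Saa4 (-1.33). Of 16 liver transcription factors, 1 was higher and 2, Nr1h4 (-0.74) and Nr2f2 (-0.54), were lower, values being log2 fold changes.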

How the data were processed

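The authors purified poly-A RNA, sequenced paired ends, aligned reads to GRCm38 and quantified genes with Salmon as TPM. The deposited table holds a whole-number score per gene, called raw counts by the study but read here as rounded TPM, since each sample sums to under a fixed total (907513 at most). TPM keep no depth, so no counting intervals are given. Of 28442 genes, 12874 were at 0 in every sample, and 8 lines had an extra separator. Groups came from the sample labels and ages from the study's supplementary list, in which the mouse numbers of tumors 3 and 10 differ from the labels.

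Sample scaling used the trimmed mean of log ratios (M, 30% trimmed, A, 5% trimmed). Genes reaching 1 after scaling in 6 or more samples were tested on log2(value + 1) by limma (version 3.58.1, R 4.3.3), using a mean-variance trend and Benjamini-Hochberg adjustment over all genes, at 0.05. The script was tested on simulated data. Ratios were tested by exact permutation in Python 3.11.15. P-values set the difference between groups against the spread between these samples. They count tumors 11 and 12 of 1 mouse as 2 samples, in limma and in the ratio tests. With these 2 tumors averaged, limma called the same 5 members higher and 6 lower, and 2133 genes over the whole table. The members and gene lists were chosen with earlier results of these data known. Named genes are those members that passed or whose groups did not overlap, the most abundant member of each role group, and up to 3 called genes per direction of other lists, a few of which are not reported here. Alternatives changed scaling, filter, pseudocount, weights, covariates and samples. RefSeq promoters were of GRCm38.p6, and Masp1, Kng1, Cfi, C4b, Cfb, C2, Plg and Proc had no entry. Protein sequences were not used here.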

Additional observations from a re-analysis of the deposited data

Results flagged for a closer look

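Of 45 values compared within the 6 livers (39 genes and 6 ratios), 5 had 1 liver set apart, by the gap to its nearest neighbor as a share of the range (limit 0.625), where chance alone gives about 2.25. Liver 1 was low in Mbl2 (58.7 scaled TPM against 133 to 165 in the others, gap 0.704), in C1s1 (58.7 against 97.9 to 115, gap 0.697) and in Mbl1 (33.7 against 61.4 to 76.6, gap 0.645). Liver 2 was high in C4b (677 against 469 to 543, gap 0.642), and liver 5 in C4bp (203 against 108 to 143, gap 0.631). Without liver 1 the log2 fold changes were -1.55 for Mbl2 (adjusted p = 0.00154, limma) and -1.15 for Mbl1 (adjusted p = 0.000476).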

How the results depend on the processing

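The main counts were 5 members higher and 6 lower in tumors, 12 other complement and coagulation genes higher and 6 lower, and 2176 genes over the whole table. Across 34 alternatives, 339 of 374 values of the 11 called members kept their call, 35 lost it and 0 reversed. Among the 28 members not called, 24 of 952 values passed, and 46 changed sign. Without scaling, 1 member was higher and 1341 genes were called. Sample quality weights gave 12 members lower, 13 other genes lower and 4584 genes. The tag as a covariate gave 11 other genes lower. Samples with E19 alone gave 2 members and 6 other genes higher and 1344 genes called. E20 alone gave 1 member higher and 0 lower (9 members at an unadjusted p under 0.05), 5 other genes higher and 2 lower, and 411 genes. Without liver 1 and tumor 2 together, 13 members and 12 other genes were lower, and 3681 genes were called. Leaving out 1 sample at a time gave 5 to 6 members higher, 4 to 8 lower, 11 to 15 other genes higher, 5 to 9 lower and 1622 to 3209 genes, the highest without tumor 2. Both tags alone have fewer samples, and the cause of the other changes was not tested.

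The replicate numbers do not pair tissues of 1 animal, since all livers and tumors came from different mice. The deviations of livers and tumors with the same number correlated at -0.10 to 0.43 (mean 0.18). For other numbers the mean was -0.04, and 3 of 6 livers correlated best with their own number. The cause of this difference was not tested. A replicate block over the 12 samples numbered 1 to 6 gave 6 members higher and 4 lower and 1351 genes. The same 12 samples without the block gave 6 higher and 3 lower and 1217 genes.

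The ratio differences were -0.45 (Fga/Fgb), -0.48 (Fgg/Fgb), 1.23 (C8a/C8b) and 0.85 (C8g/C8b) in E19 alone, where the smallest exact permutation p is 0.0278, and -0.18, -0.23, 0.80 and 0.63 in E20 alone, none past the threshold after adjustment. Leaving out 1 sample at a time gave -0.42 to -0.27 for Fga/Fgb, -0.45 to -0.33 for Fgg/Fgb, 0.84 to 1.02 for C8a/C8b and 0.66 to 0.85 for C8g/C8b. Without 1 sample, both C8 ratios kept their calls in 18 of 18 tests, Fga/Fgb in 6 and Fgg/Fgb in 13. Rounding to whole TPM limits genes at low values such as F11.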
